A study of Mus musculus with 6 samples.

Results

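Transforming growth factor beta (TGF-beta) genes were examined in mouse hearts after endotoxin: the ligand genes Tgfb1, Tgfb2 and Tgfb3, the receptor genes Tgfbr1, Tgfbr2 and Tgfbr3, the latency genes Ltbp1 and Ltbp2, the matrix gene Tgfbi and the activator gene Thbs1. These 10 genes, chosen by name, were found among 22815 genes with a symbol on the array, through 14 probes whose transcript accession belongs to them. RNA came from whole hearts of male C57BL6 mice, 10 weeks old, that had been starved for 16 h and then given lipopolysaccharide (LPS, the bacterial endotoxin) at 20 mg/kg into the peritoneum. Treatment followed at 3 and 24 h, with saline for 3 mice and, for the other 3, with recombinant human thrombomodulin (rhTM), the freely circulating version of an endothelial receptor that binds thrombin and promotes protein C activation. Hearts were taken 30 h after LPS, and each was hybridised to 1 array. All 6 mice had been given LPS, so every value below sets rhTM against saline after LPS and none refers to a healthy heart. The study asked how rhTM acts on myocardial injury in endotoxemia.

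TGF-beta ligands are secreted in a latent form. The mature dimer stays wrapped in its own propeptide, which latent TGF-beta binding proteins such as Ltbp1 anchor to fibrillin microfibrils of the matrix until integrins, proteases or thrombospondin-1 release it. The freed ligand binds the type II receptor, which recruits and phosphorylates the type I receptor, and the signal passes through Smad proteins to genes of the matrix, of contractile fibroblasts and of growth arrest. In the heart the pathway is known for its part in fibroblast activation and scar formation.

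Each level is a log2 processed signal from which the array's own 75th percentile was subtracted, and a change is rhTM minus saline with the standard error (SE) of the limma fit, which was made over all 14701 genes tested. A gene was called at a Benjamini-Hochberg adjusted p under 0.05. Each gene is given by its brightest probe, and 4 genes had a second probe. Levels of different probes are not comparable, so the genes are not ranked by level. All 14 probes passed the filter on dim signal, and 12 were well above background on all 6 arrays. Between 54.8% and 62.8% of spots were well above background per array and 0 were saturated, and the 6 cardiomyocyte markers lay at a mean of 6.91 to 8.31, the high level that heart tissue has. Saline 1 and 2 were hybridised on slide 1, and saline 3 on slide 2 with all rhTM arrays. Saline 3 also stood apart: across genes it correlated at 0.942 and 0.939 with saline 1 and 2 but at 0.965 with rhTM 3. A fit with the slide as a block compares the rhTM arrays with saline 3 alone, and it is given beside the results as the within-slide change. With 1 saline array on that slide, its SE and p take the spread from the rhTM arrays and from saline 1 and 2, and assume that saline 3 varies like them.

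Expression of 2 of the 10 genes, Tgfb2 and Ltbp2, fell with rhTM, by 3.79-fold and 5.17-fold, and none of the 10 rose. Among all genes tested limma called 2.41% lower and 2.75% higher. In group means 9 of the 10 lay lower and Ltbp1 alone lay higher. Their median change was -0.74, against 0.01 for all genes tested, of which 49.2% lay lower. The rhTM arrays lay below all saline arrays for Tgfb2, Tgfb3, Tgfbr2 and Ltbp2, 4 of the 10, against 18.7% of all genes. For Ltbp1 they lay above all saline arrays, as they did for 17% of all genes. Within the slide the median of the 10 was -0.60, 9 lay lower and 2 were called lower, Tgfb2 and Thbs1, against 1.95% of all genes. Because whole tissue was measured, fewer cells that express a gene and less of its RNA per cell cannot be told apart.

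**Figure D1:**
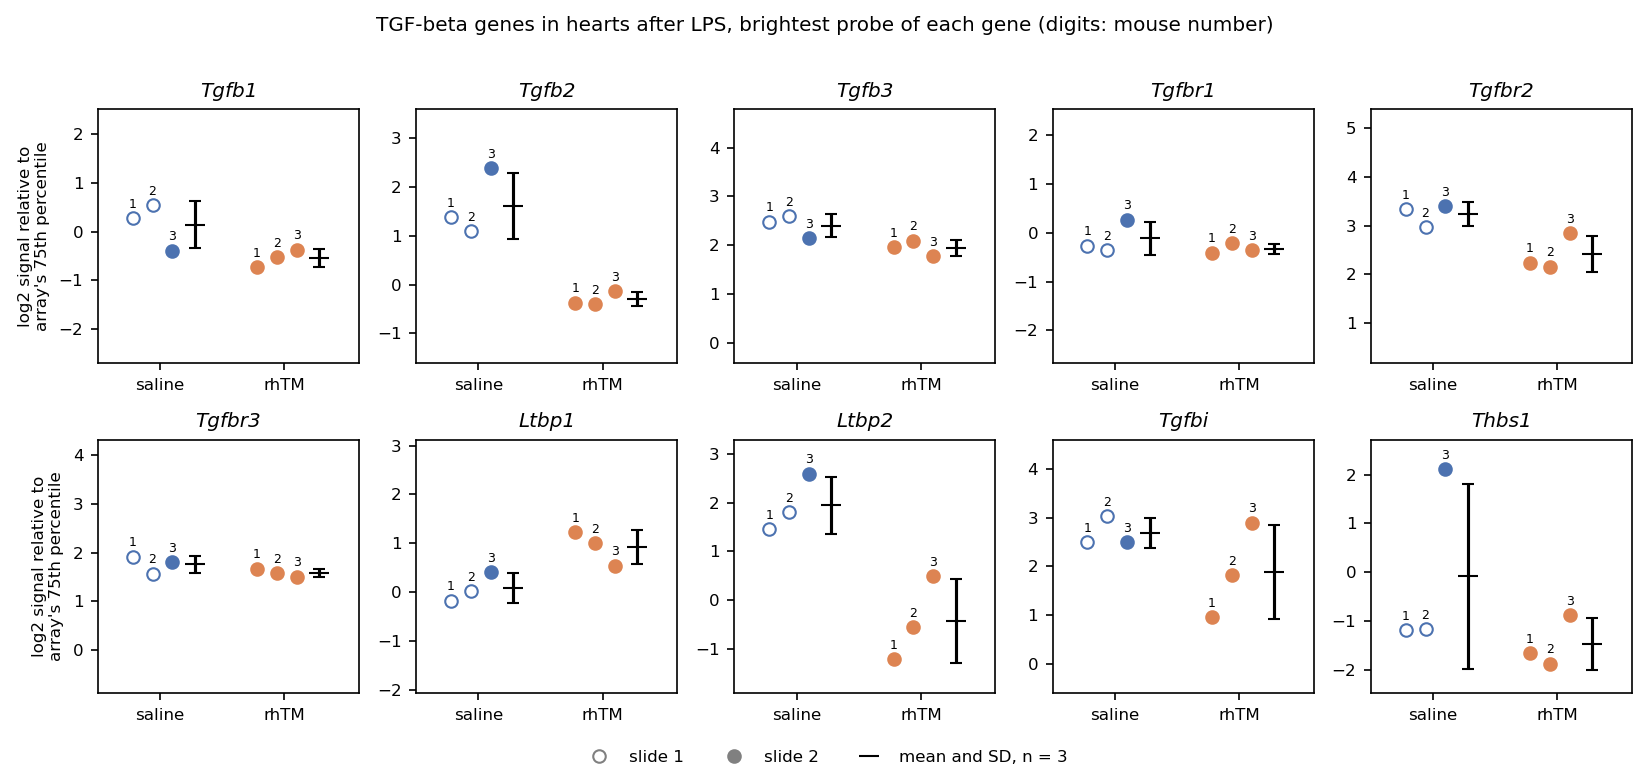
Log2 signal relative to the array's 75th percentile (y axis, equal span in every panel) for the brightest probe of each gene in 3 saline and 3 rhTM hearts. Points are mice, open for slide 1 and filled for slide 2, and bars are the group mean and SD; the rhTM points of Tgfb2 and Ltbp2 all lie below the saline points, and the Thbs1 point of saline 3 (2.11) lies far above every other Thbs1 point.

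Among the ligands the change was carried by Tgfb2, the isoform with the strongest link to cardiac valve and septum development. Its level was 1.38, 1.09 and 2.38 in mice 1, 2 and 3 given saline, against -0.37, -0.40 and -0.14 in mice 1, 2 and 3 given rhTM. The saline hearts were thus all higher, saline 3 most of all, while the rhTM hearts lay close together. The group means were 1.62 ± 0.67 and -0.30 ± 0.14 (SD, n = 3), and Tgfb2 fell by 1.92 ± 0.35 (SE, 95% interval -2.75 to -1.09, limma adjusted p = 0.0406). Within the slide the change was -2.68 ± 0.21 (adjusted p = 0.0210). The second Tgfb2 probe gave a different picture, since it read -0.57, -0.91 and 1.35 in mice 1, 2 and 3 given saline, against -0.75, -1.02 and -0.84 in mice 1, 2 and 3 given rhTM. On that probe saline 1 and 2 were level with the rhTM hearts and saline 3 alone stood higher. Its change of -0.83 ± 0.57 was not called (adjusted p = 0.354 over 30322 probes), whereas its within-slide change of -2.22 was called (adjusted p = 0.0209). Averaging both probes gave -1.38 and no call (adjusted p = 0.111).

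Tgfb1, the isoform that platelets and leukocytes store and release, was not called. It read 0.28, 0.54 and -0.39 in mice 1, 2 and 3 given saline, against -0.73, -0.53 and -0.37 in mice 1, 2 and 3 given rhTM. Saline 3 therefore lay among the rhTM hearts, and the groups overlapped. The change was -0.68 ± 0.28 (95% interval -1.36 to -0.01, adjusted p = 0.158), and within the slide it was -0.15 ± 0.22. A second, dimmer Tgfb1 probe read -3.41, -2.59 and -3.70 with saline, against -4.81, -4.24 and -3.98 with rhTM. Here the groups did not overlap, but the change of -1.11 ± 0.36 was not called either (adjusted p = 0.116 over probes) and it was -0.64 within the slide. Tgfb3, the third ligand, read 2.48, 2.59 and 2.14 with saline, against 1.96, 2.09 and 1.78 with rhTM. The groups were apart by a narrow margin, and the change of -0.46 ± 0.20 (95% interval -0.95 to 0.03) did not pass (adjusted p = 0.182). Against saline 3 alone Tgfb3 differed by -0.19 ± 0.19.

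**Figure D2:**
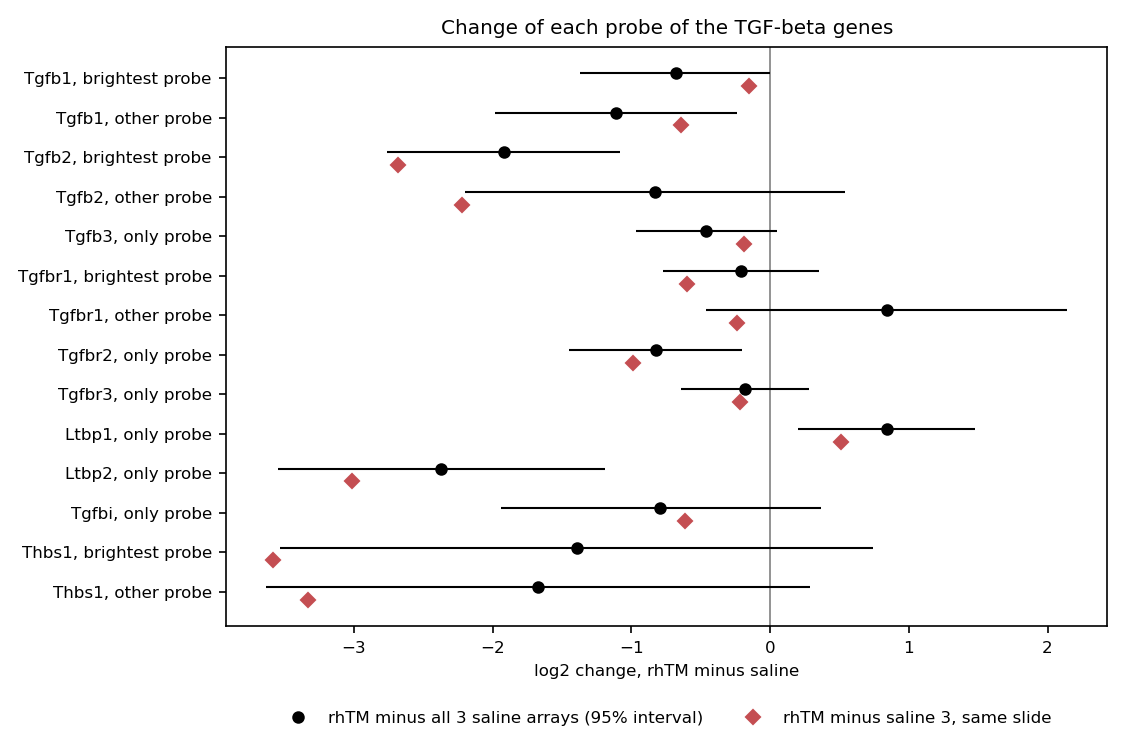
Log2 change with rhTM (x axis) for each of the 14 probes: black points with lines are the change against all 3 saline arrays with its 95% interval, and red diamonds the change against saline 3 on the same slide. The 2 probes of Tgfb2 lie apart in the first measure (-1.92 and -0.83) and closer in the second (-2.68 and -2.22).

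Of the receptors, by brightest probe, Tgfbr2 differed most and lay lower with rhTM. It encodes the type II receptor, the kinase that binds ligand first, and it read 3.34, 2.96 and 3.40 with saline, against 2.24, 2.16 and 2.84 with rhTM. The highest rhTM value, in mouse 3, lay just under the lowest saline value. The change was -0.82 ± 0.25 (95% interval -1.43 to -0.22), and it was not called (adjusted p = 0.0986), with -0.99 ± 0.33 within the slide. Tgfbr1, the type I receptor kinase that phosphorylates Smad2 and Smad3, read -0.26, -0.35 and 0.27 with saline, against -0.41, -0.21 and -0.36 with rhTM. These values overlapped, and the change of -0.21 ± 0.23 (adjusted p = 0.535) left an interval of -0.75 to 0.33. Within the slide it was -0.60 ± 0.18 (adjusted p = 0.0981), since saline 3 was the highest heart. A dim second Tgfbr1 probe, well above background on 2 of 3 saline arrays, differed by 0.84 ± 0.54 (adjusted p = 0.327 over probes), so that the mean of both probes had the opposite sign (0.31). With array weights the sign of Tgfbr1 turned as well (0.04), and neither value was called. Tgfbr3, or betaglycan, the co-receptor that presents ligand to the type II receptor and matters most for TGF-beta2, differed little. It read 1.92, 1.57 and 1.80 with saline, against 1.67, 1.58 and 1.51 with rhTM. Its change was -0.18 ± 0.18 (adjusted p = 0.523), and the 95% interval of -0.61 to 0.26 bounds what these arrays allow, with -0.22 ± 0.20 within the slide.

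Of the binding protein genes Ltbp2 was called and Ltbp1 was not. Ltbp2 encodes a microfibril protein which, unlike Ltbp1, does not bind latent TGF-beta. It read 1.45, 1.80 and 2.59 in mice 1, 2 and 3 given saline, against -1.21, -0.55 and 0.49 in mice 1, 2 and 3 given rhTM. Both groups were spread, but the lowest saline heart was above the highest rhTM heart. Ltbp2 fell by 2.37 ± 0.49 (95% interval -3.55 to -1.19, adjusted p = 0.0478), the largest of the 10 changes in this comparison, though not within the slide, where that of Thbs1 was larger. The within-slide change was larger but no longer called (-3.01 ± 0.64, adjusted p = 0.0577), and in the fit over all probes, which called 1.33% of them lower, the Ltbp2 probe just missed the threshold (adjusted p = 0.0529). In that fit Tgfb2's brightest probe was the only one of the 14 called, and blocking on the mouse number (the replicate block) took its adjusted p to 0.0512. With that block the Ltbp2 probe was called instead (limma adjusted p = 0.0494), again 1 of the 14. Over all probes that block moved the calls from 678 higher and 402 lower to 233 and 108. Over genes, Tgfb2 and Ltbp2 kept their calls with the replicate block (adjusted p = 0.0429 and 0.0390), where 1.65% of all genes were called lower.

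Ltbp1, which anchors the latent complex to the matrix, was the single gene of the 10 with higher levels after rhTM. It read -0.18, 0.01 and 0.41 in mice 1, 2 and 3 given saline, against 1.22, 1.00 and 0.54 in mice 1, 2 and 3 given rhTM. The groups did not overlap, yet saline 3 and rhTM 3 came within 0.13 of each other. The change of 0.84 ± 0.26 (95% interval 0.22 to 1.46) was not called (adjusted p = 0.0994), and within the slide it was 0.51 ± 0.30.

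Promoter windows from RefSeq (build GRCm38.p6, 250 bases before to 50 after a transcript start) are shown for the genes that fell, Tgfb2 and Ltbp2, and for the upstream start of Ltbp1, the gene that lay higher. They are printed 5′ to 3′ on the gene's strand. Capitals mark matches on either strand to the 7 motifs searched: a SMAD-binding element (CAGACA), an AP-1 site (TGANTCA), a cAMP response element (TGACGTCA), an NF-kB site (GGGNNTTCC), an E-box (CACGTG), a GC box (GGGCGG) and a TATA box (TATAAA). No 2 of these motifs overlapped in the windows shown.
Tgfb2, chr1:186705940-186706239 (- strand): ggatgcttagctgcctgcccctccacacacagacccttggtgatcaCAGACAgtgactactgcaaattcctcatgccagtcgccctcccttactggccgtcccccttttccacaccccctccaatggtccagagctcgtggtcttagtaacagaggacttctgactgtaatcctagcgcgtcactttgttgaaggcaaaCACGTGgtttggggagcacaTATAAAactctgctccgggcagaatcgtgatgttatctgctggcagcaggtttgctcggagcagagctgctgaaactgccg
Ltbp2, chr12:84876442-84876741 (- strand): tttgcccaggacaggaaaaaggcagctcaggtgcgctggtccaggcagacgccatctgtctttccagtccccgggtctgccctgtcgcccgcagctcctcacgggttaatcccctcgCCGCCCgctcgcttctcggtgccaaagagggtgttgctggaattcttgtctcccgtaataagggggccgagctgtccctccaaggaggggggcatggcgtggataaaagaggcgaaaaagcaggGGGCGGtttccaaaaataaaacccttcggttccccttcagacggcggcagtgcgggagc
Ltbp1, chr17:75005279-75005578 (+ strand): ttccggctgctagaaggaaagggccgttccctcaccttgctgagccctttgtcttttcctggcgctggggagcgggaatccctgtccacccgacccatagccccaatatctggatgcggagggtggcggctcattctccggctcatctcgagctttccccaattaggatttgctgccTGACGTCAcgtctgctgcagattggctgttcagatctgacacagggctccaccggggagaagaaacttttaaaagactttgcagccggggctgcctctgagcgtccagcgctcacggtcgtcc

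The Tgfb2 window held 1 TATA box, beginning at position -31 from the start, 1 E-box at -51 and 1 SMAD-binding element at -204. The Ltbp2 window held 2 GC boxes, at -133 and -9. The Ltbp1 window held 1 cAMP response element at -73, and the window of its downstream start, not shown, held 2 SMAD-binding elements at -149 and -98. In all, 3 of the 9 windows of these genes held a SMAD-binding element. Among 32851 RefSeq windows of this length, 13.6% held a TATA box, 7.15% an E-box, 21% a SMAD-binding element, 35.7% a GC box, 1.79% a cAMP response element, 7.81% an AP-1 site and 5.82% an NF-kB site. None of the 9 windows of the 7 genes found in the table held an AP-1 or NF-kB match in these letters, and the 6 GC boxes of Tgfb1 were the most of any one motif in a window. These matches are letters in a window and were not tested for factor binding.

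Thbs1 encodes thrombospondin-1, a platelet and matrix glycoprotein that binds the latency propeptide and frees the ligand. It read -1.19, -1.17 and 2.11 in mice 1, 2 and 3 given saline, against -1.66, -1.88 and -0.88 in mice 1, 2 and 3 given rhTM. Saline 3 exceeded saline 1 and 2 by 3.29, a wider gap than that between any other saline heart and any rhTM heart, and rhTM 3 was higher than saline 1 and 2. The overall change of -1.39 ± 0.90 was not called (95% interval -3.55 to 0.76, adjusted p = 0.319), while the within-slide change was -3.58 ± 0.40 (12-fold, adjusted p = 0.0261). That call rests on the height of saline 3, and without saline 3 the change was -0.30 and not called. Without both arrays numbered 3, an alternative chosen after seeing the data, it was -0.59 and called (limma adjusted p = 0.0220). Slide and group cannot be told apart in either fit. Thbs1 was also called with the deposited value table (-2.22, limma adjusted p = 0.0351), whose baselines differ between slides. A dimmer probe of Thbs1, well above background on 2 of 3 rhTM arrays, read -3.96, -3.65 and -1.31 with saline, against -5.10, -5.40 and -3.43 with rhTM. It repeated the height of saline 3, with a change of -1.67 ± 0.82 (limma adjusted p = 0.221 over probes). Without saline 3 that probe differed by -0.84 and was not called.

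Tgfbi, a matrix protein named for its induction by TGF-beta and bound by integrins, read 2.50, 3.03 and 2.50 with saline, against 0.96, 1.82 and 2.89 with rhTM. The rhTM hearts were more spread than the saline hearts (SD 0.96 and 0.30, n = 3), and rhTM 3 lay within the saline range. The change was -0.79 ± 0.48 (95% interval -1.94 to 0.37, adjusted p = 0.297), and -0.61 ± 0.72 within the slide.

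Markers of other cells were measured beside these genes. Neutrophil markers, tested for 5 of 6 genes, lay at a mean of 2.76, 3.58 and 5.62 in mice 1, 2 and 3 given saline, against 0.35, -0.68 and 4.52 in mice 1, 2 and 3 given rhTM, and mouse 3 was highest in each group, as it was for Thbs1, Ltbp2 and Tgfb2. Of the 5, 4 lay lower with rhTM and 0 were called (limma), although Retnlg was with the replicate block (adjusted p = 0.0466). The part of these cells in the changes of Thbs1, Ltbp2 and Tgfb2 was not tested. Cardiomyocyte markers lay at a mean of 7.71, 7.89 and 6.91 with saline, against 8.31, 8.29 and 7.69 with rhTM, higher in each same-numbered pair. Of these 6 genes 5 lay higher, 3 with all rhTM arrays above all saline arrays, the median change was 0.68 (0.70 within the slide), and 0 were called. Their part in the lower levels of other genes was not tested. The 8 fibroblast markers, of the main matrix-producing cell, lay at 2.51 to 2.73 in saline and 2.36 to 2.73 in rhTM hearts, and 0 were called. Among them Pdgfra, a fibroblast receptor, differed by -1.10 ± 0.27 (adjusted p = 0.0665) and the proteoglycan Lum by 1.22 ± 0.27 (adjusted p = 0.0543), in opposite directions. Both were picked out after their values were seen, and with the replicate block Lum was called higher (adjusted p = 0.0431). Within the slide Dpt, a matrix protein, was called higher (1.47, limma adjusted p = 0.0262), against 0.52 in the main comparison. The within-slide fit called 563 of 14701 genes higher. Platelet markers, of cells rich in Tgfb1 and Thbs1 protein, lay at -1.87 to -0.61 in saline and -0.62 to -0.55 in rhTM hearts over the 4 of 6 that passed the filter, with 1 called higher, Gp9. Itga2b and Gp1ba, which define the platelet lineage, did not pass the filter on dim signal. Macrophage markers (6 genes) lay at 1.35 to 2.28 and 1.74 to 2.23, endothelial markers (6 genes) at 2.49 to 3.00 and 2.45 to 2.76, with 0 called in both lists. Epicardial markers (5 genes) ranged from -3.12 to 0.59 in saline and -1.70 to -1.06 in rhTM hearts, with saline 2 highest and saline 3 lowest, and 0 were called. Of 7 pericyte and smooth muscle markers, at 1.68 to 2.40 and 1.86 to 2.27, 1 was called lower (Acta2) and 1 higher (Rgs5). Rgs5 was not called with the replicate block (limma adjusted p = 0.0609). For these calls and that of Gp9, the shares over all genes tested were 2.41% lower and 2.75% higher. Of the 5 atrial markers 3 were tested and 0 called, at 0.93 to 2.50 and 2.09 to 2.39.

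The other genes of the pathway were read from 4 lists with 78 tested genes. Of 20 genes of latency and activation 5 fell and none rose, against 2.41% lower and 2.75% higher among all genes tested, 18 lay lower, and their median was -0.82. They were Lrrc32, a cell surface anchor of latent TGF-beta (-1.73 ± 0.24, adjusted p = 0.0257), and Itgb3, the integrin beta chain that pairs with the alpha-v chain to grip the latency propeptide (-2.90 ± 0.43, adjusted p = 0.0286). The metalloprotease gene Adamts1 fell by 2.28 ± 0.39 (adjusted p = 0.0374). Fbn1, the fibrillin to which binding proteins attach, fell by 2.00 ± 0.38 (adjusted p = 0.0427), and Bmp1, a procollagen protease that also cleaves Ltbp1, fell by 1.03 ± 0.20 (adjusted p = 0.0447). Lrrc32 read 3.26, 3.63 and 3.56 with saline, against 1.36, 1.84 and 2.05 with rhTM, so that here saline 3 did not stand apart. Within the slide, where 1.95% of all genes were called lower, Lrrc32 (-1.80) and Adamts1 (-3.02) were called. There Itgb3 (-3.16, limma adjusted p = 0.0520), Fbn1 (-1.42) and Bmp1 (-0.90) were not. Fbn1 and Bmp1 also lost their calls with the replicate block (adjusted p = 0.0680 and 0.0631), while Bmp1's other probes differed by -1.74 (called, adjusted p = 0.0370 over probes) and by 0.38 (-0.21 within the slide). Second probes of Itgb3 and Fbn1 differed by -1.73 and -1.21 and were not called (limma adjusted p = 0.107 and 0.0807 over probes). The integrin gene Itgb1, named for its second probe, was not called by its brightest probe (-0.67, limma adjusted p = 0.104). That second probe was called lower (-1.64, limma adjusted p = 0.0440 over probes).

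**Figure D3:**
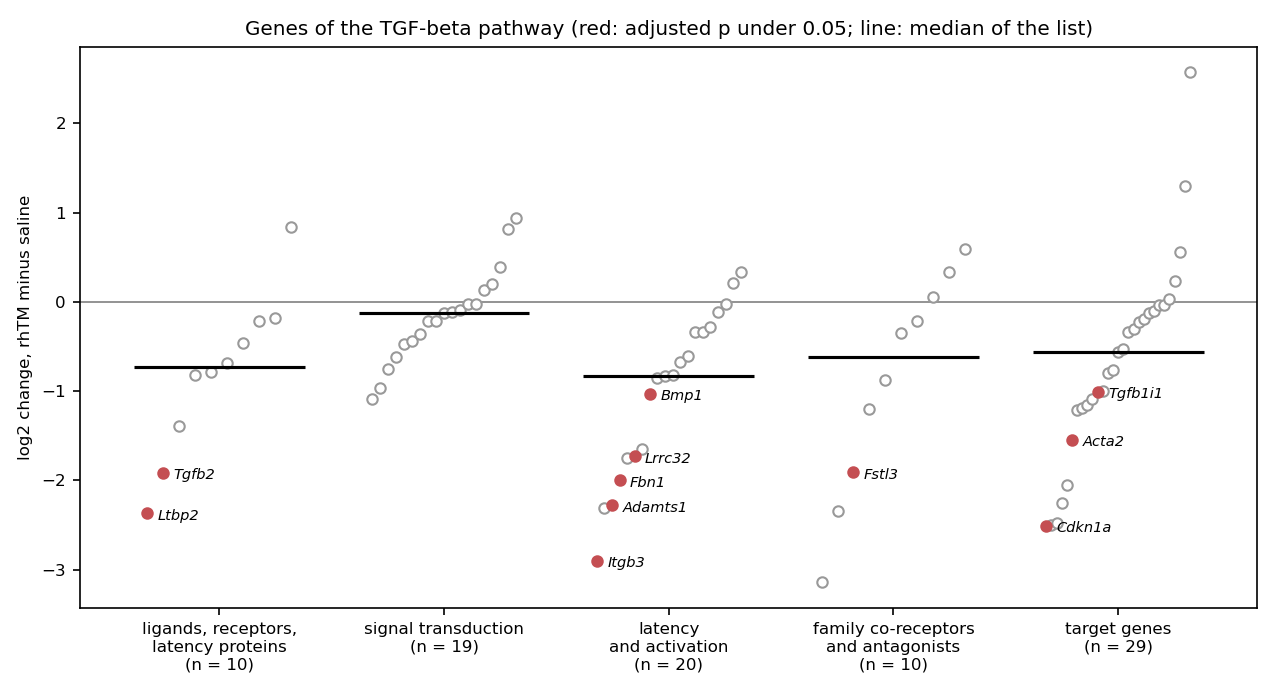
Log2 change with rhTM (y axis) of each tested gene in the 10 ligand, receptor and latency genes and 4 further pathway lists, ordered within each list; red points are called genes and lines are list medians. Each gene is drawn by its brightest probe, and by that probe the called genes all lie below 0. The latency and activation list has the lowest median (-0.82), while signal transduction lies near 0 (-0.12).

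Of 19 genes of intracellular signal transduction 0 were called in either direction (limma), which in a list of this size is near the share over all genes (2.41% lower and 2.75% higher). Of these 14 lay lower, and the median was -0.12. Those of lowest p were Pmepa1, a TGF-beta-induced inhibitor of the pathway (-0.96 ± 0.23, adjusted p = 0.0626), the ubiquitin ligase gene Smurf2 (0.82 ± 0.22, adjusted p = 0.0748), the inhibitory Smad gene Smad6 (-1.09 ± 0.37, and -0.34 within the slide) and the phosphatase gene Ppm1a (-0.75 ± 0.31, and -0.16 within the slide). A second Ppm1a probe differed the other way (0.86). Usp15's brightest probe differed by -0.02, but another of its probes was called higher (1.32, limma adjusted p = 0.0424 over probes). Its remaining probes differed by -0.16 and -0.40. Within the slide 1 of the 19 genes was called lower, the corepressor gene Tgif1 (-1.26, limma adjusted p = 0.0433), against 1.95% of all genes. In the main comparison Tgif1 differed by -0.62 (limma adjusted p = 0.228), saline 3 being its highest heart. Its second probe differed by -0.04, and by -0.59 within the slide. The receptor-activated Smad2 and Smad3 and their partner Smad4 differed by -0.36, 0.13 and -0.21, and Smad7, an inhibitory Smad, by 0.94 ± 0.60 (-0.47 within the slide, saline 3 being its highest heart), none called, and they are named for their role.

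Among 10 co-receptors and antagonists 1 fell, Fstl3, an antagonist of activin (-1.91 ± 0.36, adjusted p = 0.0422), and 0 rose, with a median of -0.62. A single call in 10 genes says little against 2.41% of all genes, and neither fit with a block kept it. Lrg1, a secreted glycoprotein that binds endoglin (-2.34 ± 0.51, adjusted p = 0.0526), Fst, the activin antagonist follistatin (-3.14 ± 0.76, adjusted p = 0.0645), and the endothelial co-receptor gene Eng (-1.20 ± 0.36, adjusted p = 0.0950) were not called. Fst was well above background on 1 of 3 rhTM arrays and passed the filter through saline alone, so that its change, its profile and its call with the replicate block (adjusted p = 0.0477) rest on rhTM values near background. Fstl3 was not called with that block (adjusted p = 0.0625). Within the slide 0 of the 10 were called lower or higher, and Fstl3 differed by -1.51 (adjusted p = 0.103).

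Of 29 target genes 3 fell and 0 rose, against 2.41% and 2.75% of all genes, 24 lay lower, and the median was -0.56. They were Acta2, the smooth muscle actin of contractile fibroblasts (-1.55 ± 0.24, adjusted p = 0.0323), Cdkn1a, the cell cycle inhibitor p21 (-2.51 ± 0.46, adjusted p = 0.0414), and Tgfb1i1, a focal adhesion adaptor (-1.01 ± 0.20, adjusted p = 0.0433). Acta2 read 6.29, 6.85 and 6.14 with saline, against 4.71, 5.01 and 4.91 with rhTM, well apart, but of its other probes one differed by -1.44 and one by 0.28. Cdkn1a's second probe differed by -0.23, and that of Tgfb1i1 by -0.96, not called (limma adjusted p = 0.0928 over probes). The collagen gene Col5a1 followed in order of p (-0.80 ± 0.19, adjusted p = 0.0609). None of the 3 was called within the slide (adjusted p = 0.0605 to 0.0985), where Il11 (-3.18, adjusted p = 0.0262) and Ccn1 (-1.55, adjusted p = 0.0329) were among the genes called, named here after their values were seen. Il11 was well above background on 2 of 3 rhTM arrays, so that its size depends in part on background. The fibrillar collagen genes Col1a1, Col1a2 and Col3a1 differed by -0.34, -0.56 and -0.30, none called, and are named for their role. With the replicate block Cdkn1a and Tgfb1i1 were not called, and Timp1 and Junb were (limma adjusted p = 0.0391 and 0.0464). In the main comparison Junb's brightest probe was not called (-1.19, limma adjusted p = 0.140). Its second probe was called lower (-2.81, limma adjusted p = 0.0245 over probes).

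Profiles over the 6 arrays were compared as a description, the arrays sharing group and slide. Among the pathway genes the profile of Tgfb2 was most like that of Adamts1 (Pearson r = 0.986) and Il11 (0.978), and that of Ltbp2 most like Fst (0.982, with rhTM values near background) and Timp1 (0.976). Thbs1 was nearest to Itgav (0.980) and Tnc (0.977), genes that were likewise highest in saline 3. Tgfb1 was nearest to Loxl2 (0.973) and Thbs2 (0.969), Tgfb3 to Eng (0.976) and Tgfbrap1 (0.951), Tgfbr2 to Itgb3 (0.972) and Timp1 (0.969), and Tgfbr1 to Ccn1 (0.938) and Itgav (0.937). Ltbp1 was nearest to Smurf2 (0.961) and Trim33 (0.870), genes that also lay higher with rhTM, and Tgfbi to Col1a1 (0.918) and Col1a2 (0.881). For Tgfbr3 the highest values were lower, Smad2 (0.848) and Smad4 (0.787). Within the 10 genes, Tgfb2 and Ltbp2 correlated at 0.933, Tgfb2 and Tgfbr2 at 0.903, Tgfbr2 and Ltbp2 at 0.928, and Tgfb1 and Ltbp1 at -0.905.

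The calls depended on which arrays were included. Leaving out saline 1, saline 2, rhTM 1 or rhTM 2 left 0 of the 10 genes called (limma; without rhTM 1, 2 were at an unadjusted p under 0.05), although the change of Tgfb2 stayed between -2.18 and -1.54 and that of Ltbp2 between -2.83 and -1.98 over the 6 such fits. Without saline 1, rhTM 1 or rhTM 2, 0 genes of the whole array were called lower, the called pathway genes included, and without saline 2 only 3 were. Without rhTM 3, Ltbp2 alone was called. Without saline 3, Tgfb1 (-0.95, adjusted p = 0.0126), Tgfb3 (-0.59, adjusted p = 0.0311) and Ltbp1 (1.00, adjusted p = 0.0239) were called besides Tgfb2 and Ltbp2, but slide and group cannot be told apart in that fit. Over 17 alternatives Tgfb2 was called in 10 and Ltbp2 in 8, and both kept their direction in all 17. For both genes these calls include the fits without saline 3 and without both arrays numbered 3, where slide and group cannot be told apart. They also include the deposited value table, whose baselines differ between slides.

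**Figure D4:**
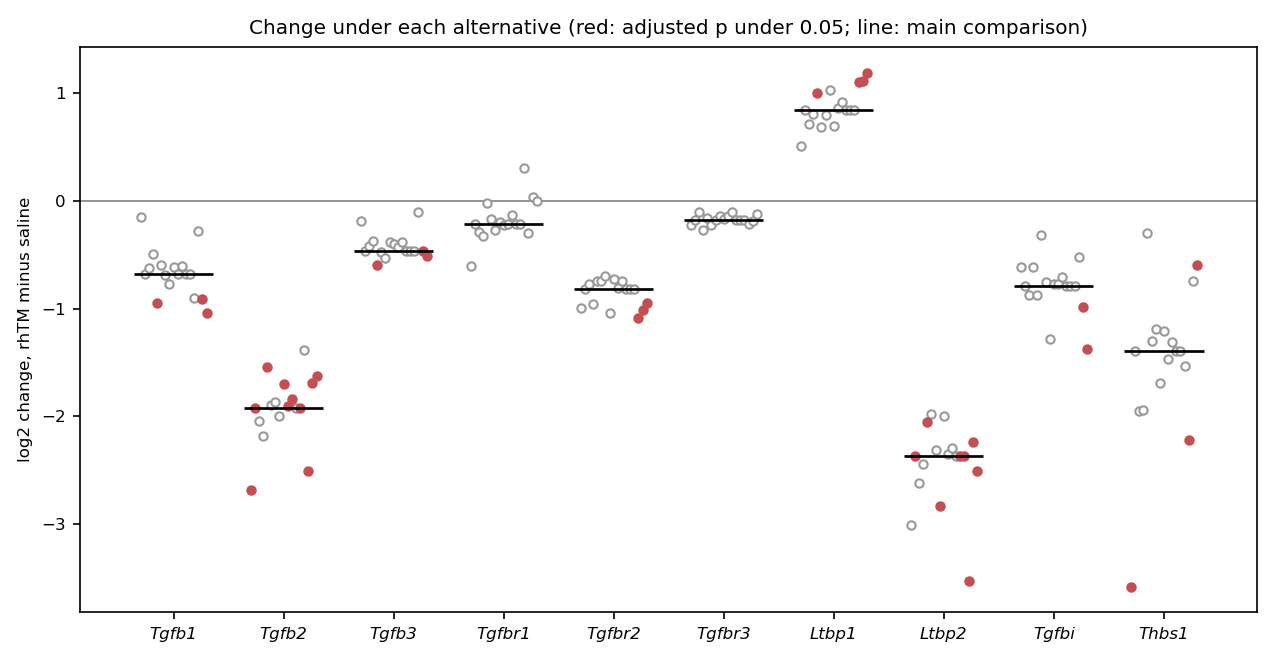
Log2 change with rhTM (y axis) of each gene under each of 17 alternative analyses, red where called at adjusted p under 0.05; black lines are the values of the main comparison. Tgfb2 stays between -2.68 and -1.38 and Ltbp2 between -3.53 and -1.98, and points of Tgfbr1 lie on both sides of 0.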

How the data were processed

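Cy3-labelled RNA of 6 mouse hearts was measured on 1-colour Agilent arrays, 1 per mouse, with groups taken from the sample titles. The authors deposited spot intensity from the scanner, background-corrected in Agilent Feature Extraction (10.7.3.1 per the file headers, 9.1 per the submitters' processing notes). They also deposited a table of log2 values with no stated baseline. Set against the scanner values, its columns were on 1 baseline within a slide and on another between slides (SD of the difference 0.825 between saline 1 and 3), with column medians of -0.16 to 0.10, and it served only as an alternative.

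Each log2 processed signal had its array's 75th percentile subtracted. Replicate spots were averaged. Controls were dropped, as were 368 of 56605 probes for outlier flags. Probes were named through accessions in a RefSeq table (GRCm38.p6), which matched 32789 probes and left 23448 unnamed. Each gene was represented by the probe with the highest mean signal, and probes well above background on all 3 arrays of a group were tested: 14701 genes and 30322 probes. Groups were compared across all genes by lmFit and eBayes of limma 3.58.1 (R 4.3.3) with no covariate and Benjamini-Hochberg adjustment. The fit was run on simulated arrays with large known changes, a spread below that of the data and no slide effect. It therefore does not gauge the calls of smaller changes or the effect of the slide. Samples were separate mice per the labels, and 3 arrays per group limit the precision.

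Same-numbered arrays deviated together across genes (correlations 0.319, 0.235 and 0.372), which by the rule used here treats the numbers as pairs. The labels name no shared litter or day, and rhTM 2 correlated more with saline 1 (0.314) than with saline 2 (0.235). The numbers are therefore not established as pairs, and blocking on the number was kept as an alternative. The planned background correction used the median signal in place of the mean signal, with an offset of 50.

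Genes, lists and tests were chosen with earlier results of these data known. Named genes are the 10 genes with their probes, the called genes of each pathway list together with those of lowest p up to 4 per list, and the 2 pathway genes most like each of the 10.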

Additional observations from a re-analysis of the deposited data

How the results depend on the processing

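Over the 17 alternatives the direction of 9 of the 10 genes did not change. Tgfbr1 turned from -0.21 to 0.31 with the mean of all kept probes and to 0.04 with array weights, and its dim second probe turned from 0.84 to -0.24 with the slide as a block. The count of the 10 genes called lower was 2, and it was 1 with normexp background correction, quantile normalization, centring on the median of the genes tested or the mean of all kept probes, and 0 with no filter on dim probes, where more genes were tested (22815). It was 4 with the deposited value table, 6 with array weights and 7 without both arrays numbered 3, an alternative chosen after seeing the data. In those 3 settings 1 gene, Ltbp1, was called higher. Without both arrays numbered 3, as without saline 3, all saline arrays are on slide 1 and all rhTM arrays on slide 2. Slide and group cannot be told apart in those fits. Leaving out 1 array gave 0 to 4 lower and 0 to 1 higher. Over all genes, 405 were called higher and 355 lower. These counts were 200 and 212 with normexp, 132 and 19 with no filter, 2205 and 2314 with the deposited value table, 4663 and 4581 with array weights and 3948 and 3873 without both arrays numbered 3. Leaving out 1 array gave 0 to 3007 higher and 0 to 2808 lower (limma, 1271 and 1314 at an unadjusted p under 0.05 in the fit without rhTM 1, which had 0 calls). Centring on the median made 64.3% of the calls higher, against 53.3%. Over probes, 678 and 402 were called, 233 and 108 with the replicate block, and 0 to 7159 and 0 to 5067 when 1 array was left out. Over genes the replicate block changed no call of the 10. The cause of these differences was not tested, and the value table's baselines differ between slides. Saline 3 is the single saline array on the slide of the rhTM arrays, so every within-slide value rests on it.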
